A study of Mus musculus with 6 samples.

Results

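The genes described here encode the secreted and membrane-bound metalloproteases that cut the extracellular matrix, together with their dedicated inhibitors. They comprise the matrix metalloproteases (MMPs), the ADAMTS proteases, the 4 tissue inhibitors of metalloproteases (TIMPs) and the membrane-anchored inhibitor Reck. The 40 genes were chosen by symbol, and 38 of them had a row in the deposited table: 16 MMPs, 17 ADAMTS genes and 5 inhibitors, out of 19505 different symbols on the array. Mmp15 and Adamts2 were not analysed here.

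RNA came from the Müllerian ducts of E17.5 mouse embryos. The 3 mutant embryos had the genotype Lats1f/f,Lats2f/f,Amhr2cre/+, in which Cre is made from the Amhr2 locus, active in duct mesenchyme, and the 3 control embryos had the genotype Lats1f/f,Lats2f/f without Cre. Both groups thus carried loxP-flanked Lats1 and Lats2, genes of Hippo pathway kinases, and differed in the Cre allele, so an effect of Cre or of the altered Amhr2 locus cannot be told apart from that of the deletions. Each embryo was hybridised to its own array, the labels call the samples biological replicates, and the small number of arrays limits the precision. Values are log2 signals as deposited, and a difference of 1 is a 2-fold change. The background level of an array was the median of its 23 antigenomic background rows, between 5.35 and 5.88. A gene is said to have risen or fallen where limma's adjusted p over all 22206 tested rows was below 0.05.

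MMPs are made as inactive precursors with a catalytic zinc ion, and together they can degrade collagens, laminins, elastin and proteoglycans. ADAMTS proteases carry thrombospondin repeats that bind matrix, and many cut either large proteoglycans such as versican or the ends of procollagens. TIMPs bind the active site of these enzymes, and the balance between both sides sets how fast matrix is turned over in organs that change shape, the uterus and its embryonic precursor among them.

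The duct's own markers were present in both groups: 7 of 7 measured mesenchyme markers and 7 of 8 epithelial markers were above background on every array. The summed signal of the mesenchyme markers, on the log2 scale, was 17.54 to 17.60 in mutant and 17.73 to 18.02 in control ducts, and 6 of the 7 had lower means in mutant ducts. These 7 include Amhr2, the locus from which Cre is made in the mutants, and Col1a1, Col3a1 and Osr2 had the highest signals among them. The summed signal of 6 endothelial markers was 15.18 to 15.44 in mutant and 14.80 to 14.96 in control ducts, with Kdr the 1 that rose. Only 2 of the 6 had higher means in mutant ducts, and their median log2 fold change was -0.15. The part of these cells in the results below was not tested. Amhr2 had log2 signals of 6.92, 7.52 and 6.54 in mutant and 10.88, 10.51 and 10.80 in control ducts, and Lats1 averaged 11.50 ± 0.34 in mutant and 12.28 ± 0.20 in control ducts (SD, n = 3 each), which did not pass (adjusted p = 0.0958). Lats2 averaged 11.64 ± 0.32 in mutant and 11.41 ± 0.22 in control ducts and was thus not lower (adjusted p = 0.684). Which exons the probes read was not known here, so Lats1 and Lats2 do not check the deletion. Control arrays differed among themselves in markers of other tissue. The summed signal of 7 urothelial markers was 13.38 to 13.40 on the mutant arrays and 13.40, 13.69 and 15.13 on the control 1, control 2 and control 3 arrays. Upk3b, at 13.10 to 13.40 on all 6 arrays, made up most of it except in control 3. Upk2 and Psca were above background in control 3 alone, at 12.21 and 11.90. The summed signal of 8 smooth muscle markers was 17.96 to 18.13 in mutant ducts. It was 14.59, 16.08 and 17.94 in control 1, control 2 and control 3. Control 3 was thus high in urothelial markers. Its smooth muscle sum was close to the mutants, but some single markers were not. Actg2 was 15.15 in control 3 and 8.62 to 9.54 in mutant ducts, and Myh11 12.58 against 7.57 to 8.04. Tagln, which rose, was 12.62 in control 3 and 15.02 to 15.37 in mutant ducts. Of the 8 markers, 4 had higher means in mutant ducts. Control 2 was the array with the highest neutrophil signal when Lcn2 was left out. The 10 other measured markers summed to 8.91 to 9.15 in mutant ducts and to 9.83, 11.96 and 9.48 in control 1, control 2 and control 3. With Lcn2 the sum was highest in mutant 1, at 13.55, against 13.18 in control 2. In whole ducts, a change in the number of cells of a type and a change in RNA per cell cannot be told apart.

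In mutant ducts 8 of the 38 measured genes rose and 1 fell, which is 21.1% and 2.63% of them, where 2.59% of all tested rows rose and 0.666% fell. Those that rose were the proteases Mmp9, Mmp12, Adamts3, Adamts5, Adamts9 and Adamts20 and the inhibitors Timp1 and Timp3, and Adamts15 fell. By family, 2 of 16 MMPs, 4 of 17 ADAMTS genes and 2 of 5 inhibitors rose. The median log2 fold change was 0.14 over the MMPs, 0.23 over the ADAMTS genes and 0.40 over the inhibitors, beside -0.01 over all tested rows. The groups did not overlap for 20 of the 38 genes: 16 lay higher in every mutant than in every control array and 4 lower, where 10.9% and 10.2% of all rows did so. The 4 lower ones were Mmp11, Adamts7, Adamts15 and Adamts17, of which Adamts7 was apart by less than the rounding of the printed values. The arrays of the other 18 genes overlapped between groups, with log2 fold changes from -0.51 to 0.56.

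**Figure D1:**
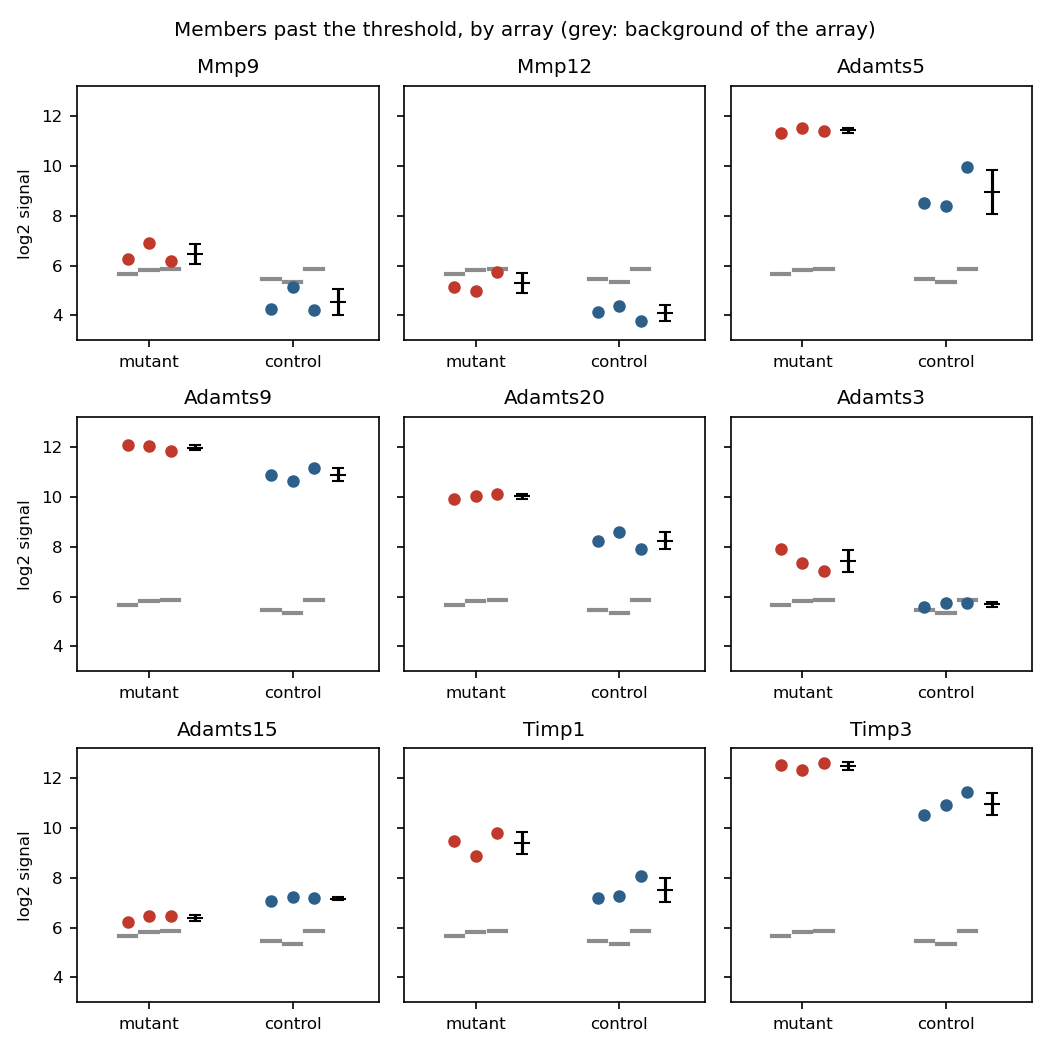
Log2 signal of the 9 genes that passed the threshold, 1 point per array, mutant (red) and control (blue), with the mean and SD in black and the background level of each array as a grey tick. The mutant points lie above the control points in 8 panels and below them for Adamts15. Mmp12 lies below background on all 6 arrays. Control 3 is the highest control for Adamts3, Adamts5, Adamts9, Timp1 and Timp3, with control 2 level with it for Adamts3.

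Signals were above background on all 6 arrays for 25 genes and below it on all 6 for 7, namely Mmp3, Mmp7, Mmp12, Mmp13, Mmp24, Adamts8 and Timp4. Mmp8, Mmp9, Mmp17, Mmp28, Adamts3 and Adamts18 were above it on some arrays. The MMPs were thus often near the limit of measurement, with 7 of 16 above background throughout, against 14 of 17 ADAMTS genes and 4 of 5 inhibitors.

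The proteoglycan-cleaving ADAMTS proteases held the largest rise of the 38 genes. Of the 7 measured members of this branch, Adamts5, Adamts9 and Adamts20 rose, Adamts15 fell, and Adamts1, Adamts4 and Adamts8 did not pass. Adamts5 encodes the main aggrecan-cleaving enzyme of mouse cartilage. Its log2 signal was 11.32, 11.53 and 11.41 in mutant ducts, against 8.52, 8.38 and 9.95 in control ducts. The mutant arrays were close together and the control arrays spread widely, with control 3 nearest to the mutants. The log2 fold change was 2.47 ± 0.36 (SE), a 5.54-fold rise with a limma adjusted p of 0.00642. With 1 array omitted it ranged from 2.18 without control 2 to 2.97 without control 3, with adjusted p between 0.000157 and 0.0319.

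Adamts20, the gene mutated in belted mice, had log2 signals of 9.90, 10.04 and 10.12 in mutant ducts and 8.23, 8.58 and 7.91 in control ducts. Here control 3 was the lowest control array, and the groups were 1.31 apart at their nearest. The rise was 3.43-fold, a log2 fold change of 1.78 ± 0.20 (SE) at a limma adjusted p of 0.00148, the smallest adjusted p of the 38 genes. Adamts9, a close relative that also cuts versican, stood at 12.06, 12.03 and 11.84 in mutant ducts and at 10.86, 10.64 and 11.16 in control ducts. It rose by 1.09 ± 0.18 on the log2 scale, or 2.13-fold, with a limma adjusted p of 0.0126. Omitting control 1, control 2 or mutant 1 gave an adjusted p of 0.0588, 0.0509 or 0.0600, which ended the call.

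Adamts15, another protease of this branch that cleaves aggrecan and versican, was the only member to fall. It was at 6.24, 6.46 and 6.45 in mutant ducts, against 7.08, 7.21 and 7.18 in control ducts. Both groups were tight and did not overlap, and the log2 fold change was -0.78 ± 0.16 (SE) at a limma adjusted p of 0.0305. All 6 values lay below the 95th percentile of the background rows. The call was lost whichever of the 6 arrays was omitted, with adjusted p from 0.0698 to 0.130 and log2 fold changes from -0.81 to -0.70. Adamts8, its direct neighbour on chromosome 9, was below background on every array, with log2 signals of 5.16, 5.35 and 5.79 in mutant and 4.93, 4.61 and 4.76 in control ducts (adjusted p = 0.142).

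Adamts1 and Adamts5 are also direct neighbours, on chromosome 16, and differed in their values. Adamts1, which in mice is needed for ovulation, was at 12.55, 12.71 and 12.76 in mutant ducts and at 12.72, 12.20 and 12.49 in control ducts. Its groups overlapped, with a log2 fold change of 0.21 and a 95% interval from -0.21 to 0.62. Within each array, the log2 signal of Adamts5 minus that of Adamts1 was -1.23, -1.18 and -1.35 in mutant ducts and -4.19, -3.82 and -2.54 in control ducts. That difference depends on the probes in its absolute value, and its shift of 2.26 between genotypes is a description of a pair chosen with the values known. Adamts4, an aggrecan-cleaving enzyme, had a log2 fold change of 0.06 with an interval from -0.43 to 0.55.

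**Figure D2:**
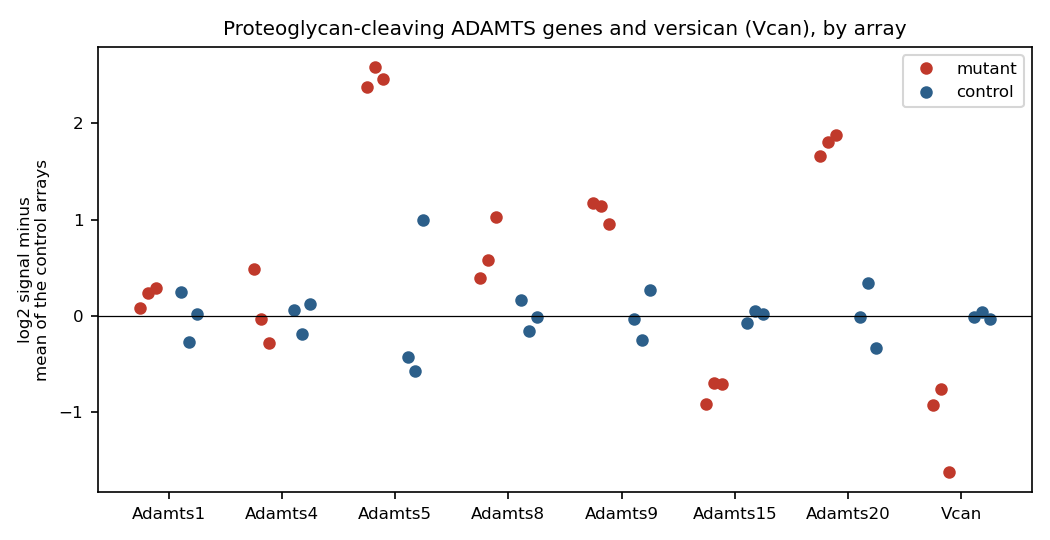
Log2 signal minus the mean of the 3 control arrays for the 7 proteoglycan-cleaving ADAMTS genes and for versican (Vcan), 1 point per array, mutant in red and control in blue. Adamts1, Adamts5, Adamts8, Adamts9 and Adamts20 lie above 0 on every mutant array, and Adamts15 and Vcan lie below 0 on every mutant array. Adamts1 and Adamts4 overlap between groups, and Adamts8 was below background on every array.

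Versican, the large proteoglycan that these enzymes cut, moved the other way from Adamts5, Adamts9 and Adamts20. Its gene Vcan had log2 signals of 15.19, 15.35 and 14.49 in mutant ducts and of 16.10, 16.15 and 16.08 in control ducts. The control arrays were almost level and mutant 3 was the lowest. The log2 fold change was -1.10 ± 0.23 (SE) at a limma adjusted p of 0.0336, a call lost on omitting any of 5 of the 6 arrays (adjusted p up to 0.112). Among the other proteoglycans cut by ADAMTS enzymes, Acan, which encodes aggrecan, had a log2 fold change of 0.02, and Bcan and Ncan were below background on every array.

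Of the procollagen N-propeptidases, which trim fibrillar procollagens, Adamts3 rose and Adamts14 did not pass. Adamts3, which also activates the lymphatic growth factor VEGF-C, was at 7.89, 7.34 and 7.03 in mutant ducts and at 5.57, 5.74 and 5.74 in control ducts. Mutant arrays were above background throughout, and in control ducts the signal was near the background level, above it on 2 of 3 arrays and below it in control 3. Against the 95th percentile of the background rows, only mutant 1 was above background. The log2 fold change was 1.74 ± 0.23 (SE) with a limma adjusted p of 0.00328, and its size is of little precision because the control signal was so near background. Adamts14 was at 7.92 ± 0.21 in mutant and 7.95 ± 0.11 in control ducts (SD, n = 3 each), with an interval of its log2 fold change from -0.42 to 0.36.

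The remaining ADAMTS genes did not pass. Adamts16 and Adamts18, which form a related pair, were both higher in every mutant than in every control array. Adamts16 had log2 signals of 8.59, 7.70 and 8.65 in mutant ducts and 6.98, 7.50 and 7.39 in control ducts, a log2 fold change of 1.02 with an adjusted p of 0.0909. Adamts18 was at 6.24, 5.26 and 6.22 in mutant ducts, against 4.87, 4.95 and 5.03 in control ducts, which all lay below background (adjusted p = 0.102). Mutant 2 was the lowest mutant array for both, and without it the adjusted p was 0.0204 for Adamts16 and 0.00989 for Adamts18. Omitting any other array left both short of the threshold, with adjusted p up to 0.275 for Adamts16 and 0.292 for Adamts18. For Adamts18, mutant 2 also lay below background, and no array exceeded the 95th percentile of the background rows.

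Adamts17, mutated in a human short-stature syndrome, leaned the other way, at 7.20, 7.58 and 7.83 in mutant and 8.11, 8.30 and 8.29 in control ducts (log2 fold change -0.69, adjusted p = 0.111). Its partner Adamts19 had a log2 fold change of -0.21 and an interval from -0.60 to 0.19. Adamts10, whose product binds fibrillin microfibrils, was at 12.54 ± 0.07 in mutant and 12.79 ± 0.36 in control ducts. Adamts6 had a log2 fold change of 0.24, and the pair Adamts7 and Adamts12, which cleave cartilage oligomeric matrix protein, had values of -0.14 and 0.23. Adamts12 was at 12.08 ± 0.12 in mutant and 11.84 ± 0.24 in control ducts.

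**Figure D3:**
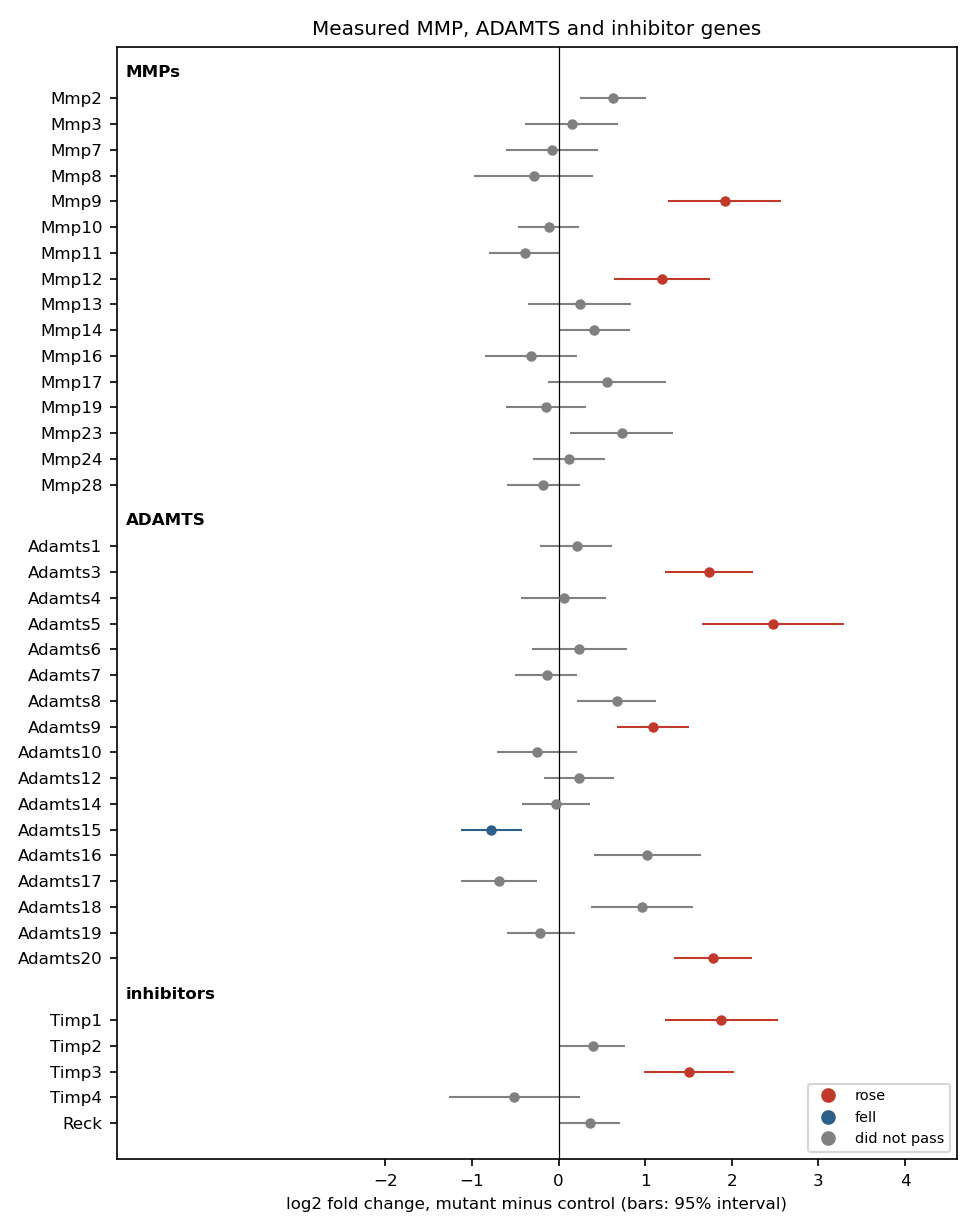
Log2 fold change, mutant minus control, of the 38 measured genes by family, with 95% intervals from limma as bars; red points rose, blue fell and grey did not pass an adjusted p of 0.05. Adamts5 lies farthest right at 2.47 and Adamts15 farthest left at -0.78, and the grey intervals of Adamts1, Adamts4 and Adamts14 span 0.

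Among the MMPs, the gelatinase Mmp9 rose and its relative Mmp2 did not pass. Gelatinases cut denatured collagen and the collagen of basement membranes. Mmp9 was at 6.25, 6.92 and 6.20 in mutant ducts, above background on each array, and at 4.27, 5.14 and 4.22 in control ducts, below background on each. The control level is therefore only a bound, and the rise was at least 1.87-fold when the control signal was set to the background level (limma adjusted p = 0.00733). Against the 95th percentile of the background rows, no array of either group was above background for Mmp9, and no such bound can be given. Mmp9 remained past the threshold whichever of the 6 arrays was omitted, with an adjusted p of at most 0.0383. Mmp2 was at 16.23, 16.45 and 16.35 in mutant ducts and at 15.89, 15.73 and 15.52 in control ducts. All mutant arrays were higher, and the log2 fold change of 0.63 ± 0.17 (SE) had an adjusted p of 0.0963. Other settings moved Mmp2 past the threshold: a trended and robust variance prior (adjusted p = 0.0141) and the removal of rows under the median signal (adjusted p = 0.0398).

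Mmp12, the elastin-degrading protease of macrophages, was at 5.15, 4.97 and 5.75 in mutant ducts and at 4.13, 4.39 and 3.77 in control ducts. Both groups lay below background on every array, so no fold is given. The groups did not overlap, with a limma adjusted p of 0.0317, and the call was lost on omitting any of 5 of the 6 arrays (adjusted p up to 0.104).

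Macrophage markers were also higher in mutant than in control ducts. Of 11 measured, 8 rose and none fell, and no marker was below background on all arrays. Their summed signal on the log2 scale was 13.95 to 14.60 in mutant and 13.06 to 13.30 in control ducts. Among the mutant arrays this sum was highest in mutant 3, where Mmp12 was highest, at 5.75, and Mmp9 lowest, at 6.20. Neutrophils are another source of Mmp8 and Mmp9. Of 11 neutrophil markers none rose and Retnlg fell, and 9 had lower means in mutant ducts. Their summed signal was 11.57 to 13.55 in mutant and 10.01 to 13.18 in control ducts. On the mutant arrays and in control 2 most of it came from Lcn2, which epithelia also make. Without Lcn2 the sums were lower on all mutant arrays, as given above. Mpo was below background on every array. Of 8 bone and cartilage markers, where Mmp9 and Mmp13 are made in the embryo, none rose, Sp7 fell, and Col2a1, Matn1 and Ibsp were below background on every array. Their summed signal was 8.65 to 9.04 in mutant and 8.85 to 8.97 in control ducts. The part of these cells in the values of Mmp9 and Mmp12 was not tested.

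Mmp12 lies in a row of MMP genes on chromosome 9 that runs, in the RefSeq order, from Mmp13 through Mmp12, Mmp3, Mmp10 and Mmp8 to Mmp7, with Mmp1b, Mmp1a, Mmp27 and Mmp20 between them. The promoters of 5 of these genes share the letters of the AP-1 site, TGANTCA, which reads the same on both strands. They are printed because they are the same short element at nearly the same place in genes of which only Mmp12 passed the threshold. Each stretch is the match, in capitals, with 40 bases on either side, on the + strand of GRCm38.p6 as given by RefSeq.
Mmp13, match at -35 from the start, chr9:7272439-7272525: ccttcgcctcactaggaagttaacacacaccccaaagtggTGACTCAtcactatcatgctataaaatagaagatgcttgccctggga
Mmp12, match at -44, chr9:7347290-7347376: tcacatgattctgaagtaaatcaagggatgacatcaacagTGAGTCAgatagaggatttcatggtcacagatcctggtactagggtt
Mmp3, match at -46, chr9:7445736-7445822: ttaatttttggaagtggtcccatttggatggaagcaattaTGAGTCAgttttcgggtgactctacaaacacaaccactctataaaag
Mmp10, match at -63, chr9:7502239-7502325: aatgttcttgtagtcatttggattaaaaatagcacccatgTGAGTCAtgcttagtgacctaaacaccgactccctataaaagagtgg
Mmp7, match at -63, chr9:7691987-7692073: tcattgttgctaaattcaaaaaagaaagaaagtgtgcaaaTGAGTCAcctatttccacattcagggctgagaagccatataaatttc

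Of the 40 genes, 26 had a promoter in the RefSeq table, with 29 start sites in all. The AP-1 letters were found at 5 of these 29 (17.2%), all in the row on chromosome 9, and at 7.81% of all 32851 promoters of the same length, from 250 bases before to 50 after the start. Mmp12 and Mmp7 each had another listed start without the letters. Of the 9 genes that passed the threshold, 6 had a promoter in the table, and Mmp12 was the only gene of these with an AP-1 match. The letters GGAATG, the core bound by TEAD factors, were searched on both strands and found at 14.7% of all promoters and at 2 of the 29, those of Timp1 and Reck. No AP-1 match overlapped a TEAD match. A match of letters describes the sequence and shows no binding.

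The other genes of the row gave low signals in both groups. Mmp13, a collagenase, was at 4.44 ± 0.51 in mutant and 4.19 ± 0.28 in control ducts, and the stromelysin Mmp3 at 4.33 ± 0.42 in mutant and 4.19 ± 0.25 in control ducts (SD, n = 3 each). Mmp7, the matrilysin of epithelia, was at 4.17 ± 0.31 in mutant and 4.25 ± 0.37 in control ducts. All of these lay below background throughout. Mmp10, another stromelysin, was above it on each array at 6.51 ± 0.12 in mutant and 6.62 ± 0.05 in control ducts, but below the 95th percentile of the background rows on every array. The collagenase Mmp8 was above background in control 2 alone, at 5.86, where the background level was the lowest of all arrays, at 5.35. It was at 5.69 in both mutant 3 and control 3, which lay below their own background levels. No array exceeded the 95th percentile of the background rows for Mmp8, and its groups overlapped.

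Membrane-type MMPs, which act at the cell surface, did not pass. Mmp14, the collagenase that also activates the Mmp2 precursor, was at 14.25, 13.95 and 13.78 in mutant ducts and at 13.54, 13.48 and 13.73 in control ducts. The groups were 0.05 apart, and the log2 fold change was 0.41 ± 0.18 (SE; adjusted p = 0.328). Mmp16 was at 11.77, 11.58 and 12.43 in mutant and 12.29, 12.40 and 12.04 in control ducts, which overlapped. Mmp17 had a log2 fold change of 0.56 with overlapping groups, and Mmp24 was below background on every array.

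Of the other MMPs, Mmp23, which is anchored in the membrane by its precursor part, had the widest difference, with log2 signals of 11.94, 11.73 and 11.18 in mutant ducts and 10.40, 11.17 and 11.11 in control ducts. The log2 fold change was 0.73, and the nearest arrays of the groups were 0.02 apart (adjusted p = 0.225). Mmp11, a stromelysin activated inside the cell by furin, was at 9.42, 9.65 and 9.49 in mutant ducts and 10.16, 9.89 and 9.68 in control ducts (log2 fold change -0.39, adjusted p = 0.353). Mmp19 and Mmp28 had log2 fold changes of -0.15 and -0.18 with overlapping groups.

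The inhibitors Timp1 and Timp3 rose. Timp1, a secreted inhibitor that binds the Mmp9 precursor, was at 9.49, 8.89 and 9.78 in mutant ducts, against 7.18, 7.28 and 8.05 in control ducts. The highest control array, control 3, lay 0.84 below the lowest mutant. The log2 fold change was 1.88 ± 0.29 (SE), a 3.68-fold rise with a limma adjusted p of 0.00820. Timp3, which stays bound to matrix and also inhibits ADAMTS proteases, was at 12.50, 12.30 and 12.60 in mutant ducts and at 10.53, 10.93 and 11.42 in control ducts. Its log2 fold change was 1.51 ± 0.23 (SE), or 2.84-fold, with a limma adjusted p of 0.00796. With 1 array omitted it ranged from 1.29 without control 1 to 1.73 without control 3, with adjusted p between 0.00282 and 0.0391. Adamts3, Adamts5, Adamts9, Timp1 and Timp3 all had control 3, the array with the high urothelial signal, as their highest control. Mmp9, Mmp12 and Adamts20 had control 2 as their highest control and control 3 as their lowest. How often control 3 was the highest control over all tested rows was not determined, so this order is only a description. For Adamts3, control 2 and control 3 were level at the printed rounding, at 5.74, and control 3 lay below background. The part of other tissue in the control levels of the 8 genes that rose was not tested.

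Timp2, which takes part in the activation of Mmp2 by Mmp14, was at 14.30, 14.01 and 13.98 in mutant ducts and at 13.72, 13.61 and 13.77 in control ducts. Its groups were apart, and the log2 fold change of 0.40 ± 0.17 (SE) had an adjusted p of 0.294. Reck, the membrane-anchored inhibitor, was at 11.59, 11.65 and 11.46 in mutant and 11.18, 11.16 and 11.27 in control ducts, with a log2 fold change of 0.36 and an adjusted p of 0.306. Mmp2, Mmp14, Timp2 and Reck thus all had higher signals on every mutant array without passing the test. Timp4 was below background on every array. Within each array, the log2 signal of Timp1 minus that of Timp2 was -4.71 ± 0.47 in mutant and -6.19 ± 0.43 in control ducts (SD, n = 3 each), a shift of 1.48 that is given as a description.

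The stretches of the Timp1 and Reck promoters that hold the TEAD letters are shown because these were the only matches among the 29 start sites and because Timp1 rose. Both are on the + strand of GRCm38.p6 from RefSeq, with the matched letters in capitals.
Timp1, match at -247, chrX:20869916-20869964: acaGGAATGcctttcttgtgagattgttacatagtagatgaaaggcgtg
Reck, match at -210, chr4:43875280-43875365: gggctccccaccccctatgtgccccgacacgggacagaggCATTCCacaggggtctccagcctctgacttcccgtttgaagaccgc

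Other genes that act on or with these proteases were read from a list of 50, of which 46 were measured. Of these, 8 rose and 1 fell, which is 17.4% and 2.17%, where 2.59% of all tested rows rose and 0.666% fell. The median log2 fold change of the related genes was 0.20. In the plasminogen system, whose product plasmin can activate MMP precursors, 2 of 5 measured genes rose. The urokinase gene Plau was at 9.84, 9.69 and 10.24 in mutant and 7.52, 7.43 and 7.98 in control ducts, and that of its receptor, Plaur, at 10.16, 10.06 and 10.19 in mutant and 6.16, 6.48 and 6.57 in control ducts. Their log2 fold changes were 2.28 ± 0.21 and 3.73 ± 0.17 (SE), with limma adjusted p of 0.000631 and 1.73e-05. The other activator gene, Plat, had a log2 fold change of 0.33, and Plg and Serpinb2 were below background.

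Of 9 proprotein convertases, astacins and their helper, Pcsk6 rose by 1.79 ± 0.20 (SE), with log2 signals of 10.54, 10.69 and 10.10 in mutant and 8.82, 8.49 and 8.65 in control ducts (limma adjusted p = 0.00141). Furin, the convertase that processes many ADAMTS and membrane-type MMP precursors, had a log2 fold change of 0.07. Of 8 ADAM genes, which encode membrane-anchored relatives and shedding enzymes, Adam9 rose by 1.61 and Adam19 by 1.27 (limma adjusted p of 0.00174 and 0.0143). Omitting control 1, mutant 1 or mutant 2 ended the Adam19 call, with adjusted p up to 0.0654. Adam10 and Adam17, the main shedding enzymes, had log2 fold changes of 0.19 and 0.24.

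Adamtsl3 rose by 1.53 ± 0.24 (SE) among 6 genes of the ADAMTS-like group, which resemble ADAMTS proteins but lack the protease domain (limma adjusted p = 0.00903). The Adamtsl3 signal exceeded the 95th percentile of the background rows in mutant 1 alone. Of 5 cathepsins, the lysosomal protease Ctss, abundant in macrophages, rose by 2.27 ± 0.23 (SE), beside the macrophage markers given above, whose part in it was not tested. The hyaluronan receptor Cd44, which can hold Mmp9 at the cell surface, rose by 1.32 (limma adjusted p = 0.00529). Lrp1, which clears MMPs and TIMPs by endocytosis, and Bsg, an inducer of MMPs, had log2 fold changes of 0.27 and 0.25. None of 6 measured further MMP and ADAMTS genes passed, and all 6 were below background on every array.

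**Figure D4:**
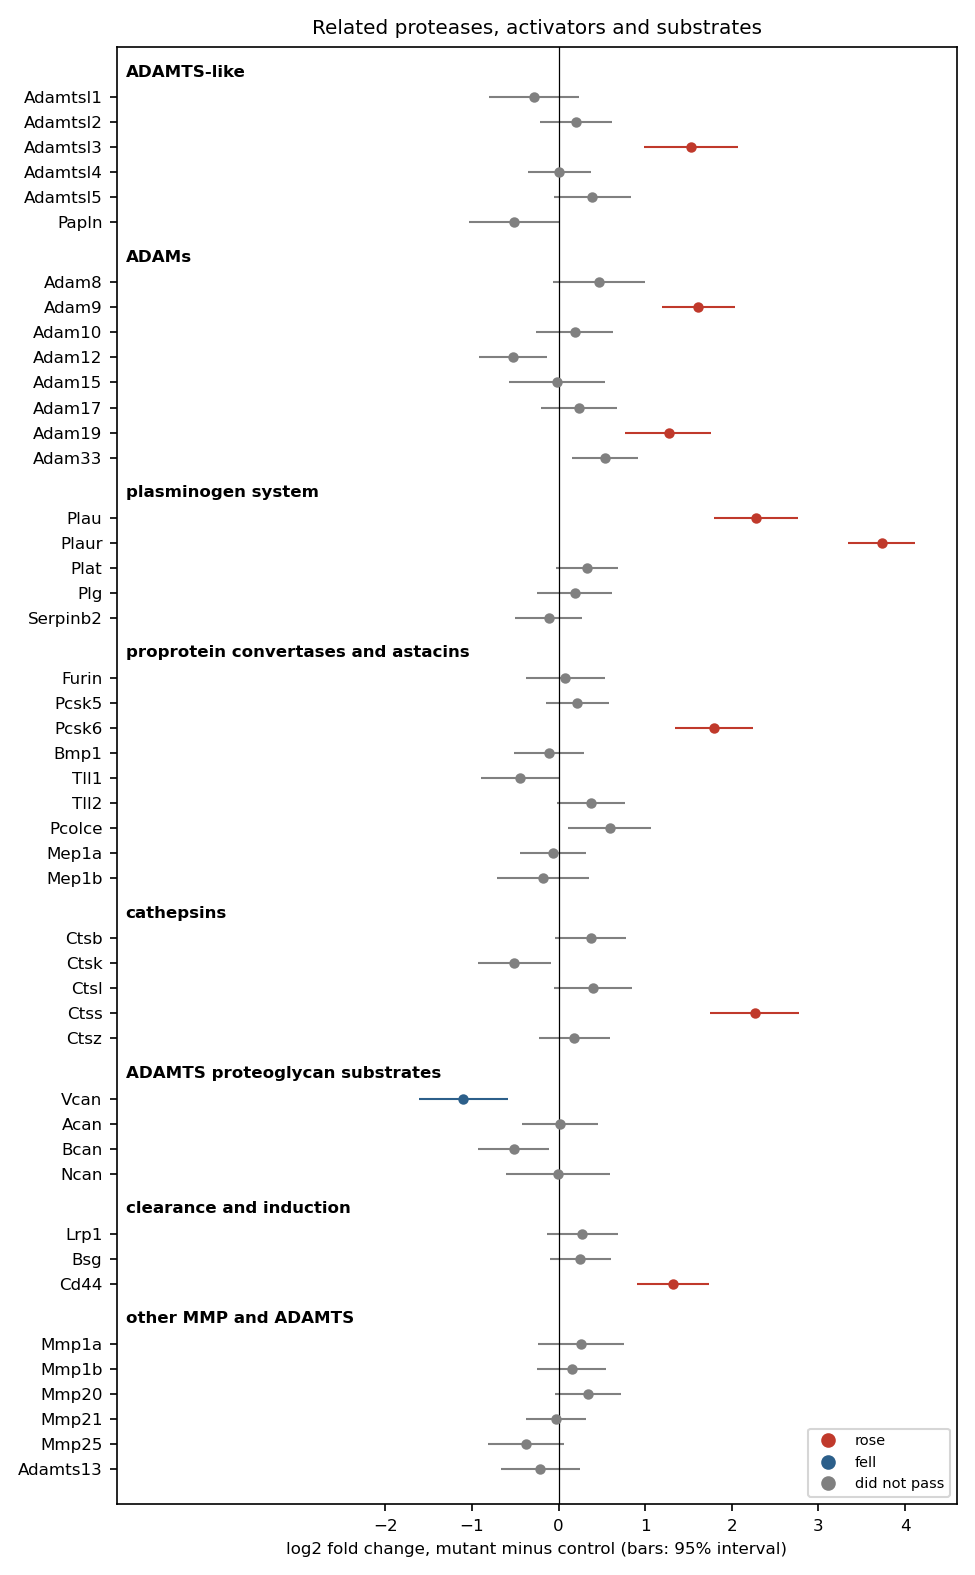
Log2 fold change, mutant minus control, of the 46 measured related genes by group, with 95% intervals from limma as bars; red points rose, blue fell and grey did not pass an adjusted p of 0.05. Plaur at 3.73 lies farthest right and Vcan at -1.10 farthest left.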

How the data were processed

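Total RNA of 6 Müllerian ducts was hybridised to Affymetrix whole-transcript arrays, 1 per embryo. The authors deposited 1 table of log2 signals, made with Transcriptome Analysis Console 4.0 per the submitters' processing notes. Probe summarisation, normalization and genome build are not given in the sources used here, and the deposited log2 values were used as they stand. Of 28846 rows, 6640 control rows were left out, and 22206 were tested. Array medians were 6.87 to 6.95. The platform annotation gave symbols for 19572 tested rows. Each member and related gene had 1 row.

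Groups follow the genotype in the labels. Each row was modelled in limma 3.58.1 under R 4.3.3 (lmFit, eBayes), genotype as the only term, two-sided, with Benjamini-Hochberg adjustment over all tested rows and a threshold of 0.05. Fold changes are mutant minus control means, given with limma's standard error or 95% interval. A gene above the median of an array's 23 antigenomic rows counts as above background there. Members, lists and named genes were chosen with earlier results of these data known. All members are accounted for, and values are given for those that passed, those apart by at least 0.5, and the 10 of highest mean signal. Of related genes up to 4 per list, with the smallest p, are named, and others were named after their values were seen. On simulated data of 22206 rows for this comparison, 40% of rows changed by 1 and 93% of rows changed by 2 (log2) were recovered, and 5 unchanged rows were called. The alternatives tried were each array left out, a threshold of 0.01, array weights, a replicate block, quantile or median scaling, a trended robust prior, filters at the 25th percentile and median of signal and a higher background level. Promoter sequences came from RefSeq (GRCm38.p6). Protein sequences were not used here. Figures used matplotlib 3.10.9.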

Additional observations from a re-analysis of the deposited data

How the results depend on the processing

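Quantile normalization, median scaling of the arrays and the filter at the 25th percentile kept all 9 calls among the members and all 9 among the related genes. Without rows under the median signal 7 members rose and 0 fell, of which 5 were among the 9. That filter removed the rows of Mmp9, Mmp12, Adamts3 and Adamts15. A trended and robust prior added Mmp2 and array weights added Adamts16. With 1 array left out, 6 to 10 members rose and 0 fell, related genes gave 7 to 8 rises and 0 to 1 falls, and all tested rows gave 360 to 697 calls against 723. Mmp9, Adamts3, Adamts5, Adamts20, Timp1 and Timp3 kept their calls in all 6 of these fits. At an adjusted p of 0.01, 299 rows passed, 6 members rose and 0 fell, and 7 related genes rose and 0 fell.

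Deviations from the group means of same-numbered arrays correlated at 0.008, 0.042 and -0.003. Those of differently numbered mutant and control arrays correlated between -0.044 and 0.032. No pairing by replicate number was seen, but so few arrays cannot exclude one. With the replicate number as a block, 633 rows passed, 7 members rose and 0 fell, and Mmp12 (adjusted p = 0.0716) and Adamts15 (adjusted p = 0.0656) were lost. At the 95th percentile of the background rows, 20 members in place of 25 were above background on all arrays. These were 6 of 16 MMPs, 11 of 17 ADAMTS genes and 3 of 5 inhibitors.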
